A study of Homo sapiens with 9 samples.

Results

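The genes described here encode the machinery that copies DNA in human cells. They were chosen by name, as the rows of the deposited count table whose symbol is on a list of 39 replication genes. A row was found for 38 of them, out of 27730 gene symbols in the table, and PRIM2 was not analysed here. They were grouped by role into origin licensing (10 genes), helicase activation (6), the sliding clamp and its loader (6), the replicative polymerases (8), lagging strand maturation (2), single-stranded DNA binding (3) and nucleotide supply (3).

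The study set an ATF6 activator beside its inactive analogue in differentiating pluripotent cells; ATF6 is a sensor of protein folding stress in the endoplasmic reticulum that acts as a transcription factor. Total RNA was sequenced from HUES9, an established human embryonic stem cell line, in 3 groups of 3 libraries. Cells at day 13 had received 10 µM AA147, which the labels name as the ATF6 activator. Cells of the second group, also at day 13, had received 10 µM RP22, its inactive analogue. The third group was collected at day 1 with no agent. All cells came from cultures kept on growth-arrested mouse fibroblasts, and differentiation went through aggregates of cells (embryoid bodies) that were later plated. Solvent-only cells were not analysed here, and day 1 differs from day 13 in time, culture form and added compound, which cannot be told apart. The labels call the replicates independent experiments.

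Before S phase, the origin recognition complex, CDC6 and CDT1 load the ring of MCM proteins onto DNA, and GINS, CDC45 and MCM10 then turn that ring into a moving helicase. DNA polymerases then copy both strands, held on DNA by the clamp PCNA, while ribonucleotide reductase and thymidylate synthase supply deoxynucleotides. Transcription factors of the E2F family are known to drive many of these genes at the G1/S transition, and human embryonic stem cells are known for fast division with a short G1 phase.

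The promoters of replication genes are shown because the E2F family is known to bind many of them. The part of E2F in the changes reported here was not tested. RefSeq promoter windows on GRCh38.p14, each 250 bases before to 50 bases after an annotated start, were at hand for 32 of the 38 genes. Both strands were searched for the words TTTCCCGC, TTTCGCGC, TTTGCCGC and TTTGGCGC, forms of the E2F site, which may overlap each other. At least 1 word was found in 17 of the 32 genes (53.1%), against 3.99% of all 27305 genes with a window. Lists described further below held them too, with 34.6% of other replication factors and 33.3% of E2F and G1/S control genes. For translesion polymerases and MCM relatives it was 37.5%, for other nucleotide synthesis 17.6%, for mitochondrial DNA replication 16.7% and for mitosis 13.3%. The windows compared were not matched for base content. In origin licensing 6 of 8 genes with a window held one. The words below are in capitals, and each sequence runs 5′ to 3′ on the gene's strand. MCM6 (chr2:135876394-135876693, minus strand) holds 4 words in 2 overlapping pairs, and MCM3 (chr6:52284693-52284992, minus strand) holds 2. CDC6 (chr17:40287629-40287928, plus strand) and TYMS (chr18:657403-657702, plus strand) hold 1 each. The window of ORC1 (chr1:52404374-52404673, minus strand), the gene with the largest fall of all 38 in each comparison, holds none of these exact words. Only exact matches were counted, and the ORC1 window holds attggcgc, which differs from TTTGGCGC by 1 letter. The lack of an exact word thus does not show that ORC1 lacks an E2F site. A match describes letters and is not a measured binding site.
MCM6: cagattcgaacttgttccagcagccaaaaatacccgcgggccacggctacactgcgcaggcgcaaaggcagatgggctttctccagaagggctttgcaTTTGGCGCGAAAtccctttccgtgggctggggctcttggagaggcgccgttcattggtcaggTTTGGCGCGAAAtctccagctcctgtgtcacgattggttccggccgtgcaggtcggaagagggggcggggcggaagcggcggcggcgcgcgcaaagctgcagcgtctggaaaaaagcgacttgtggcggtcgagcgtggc
MCM3: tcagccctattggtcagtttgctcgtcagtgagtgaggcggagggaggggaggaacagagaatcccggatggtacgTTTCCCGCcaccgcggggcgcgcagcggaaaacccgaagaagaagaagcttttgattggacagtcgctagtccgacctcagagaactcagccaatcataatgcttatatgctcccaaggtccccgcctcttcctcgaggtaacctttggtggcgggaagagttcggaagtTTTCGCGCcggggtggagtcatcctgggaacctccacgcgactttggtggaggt
CDC6: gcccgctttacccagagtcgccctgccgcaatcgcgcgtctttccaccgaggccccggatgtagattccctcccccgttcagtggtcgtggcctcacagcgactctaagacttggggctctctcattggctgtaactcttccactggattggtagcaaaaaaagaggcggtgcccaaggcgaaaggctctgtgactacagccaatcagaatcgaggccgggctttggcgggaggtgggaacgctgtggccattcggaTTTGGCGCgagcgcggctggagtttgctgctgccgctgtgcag
TYMS: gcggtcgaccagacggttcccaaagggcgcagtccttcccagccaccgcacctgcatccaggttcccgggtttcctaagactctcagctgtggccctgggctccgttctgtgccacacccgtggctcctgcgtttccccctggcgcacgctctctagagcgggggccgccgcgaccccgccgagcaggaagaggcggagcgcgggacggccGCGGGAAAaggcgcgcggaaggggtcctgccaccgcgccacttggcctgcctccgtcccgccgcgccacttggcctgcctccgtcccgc
ORC1: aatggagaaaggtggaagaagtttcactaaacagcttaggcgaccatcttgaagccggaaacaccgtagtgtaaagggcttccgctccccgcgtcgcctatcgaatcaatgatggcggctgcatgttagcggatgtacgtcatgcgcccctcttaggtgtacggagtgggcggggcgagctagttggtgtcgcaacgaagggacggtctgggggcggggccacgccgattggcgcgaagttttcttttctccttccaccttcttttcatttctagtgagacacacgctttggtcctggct

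The depth was even, with 9223027 to 10118258 reads assigned to genes in a library. The lowest count of any replication gene in any library was 27 reads, for GINS3 in AA147 replicate 2. Levels are given as CPM, counts scaled to library size and then by TMM over all 9 libraries, and comparisons between genes use the authors' RPKM, which also divides by gene length. TMM factors were 0.786 to 0.820 in AA147 libraries, 1.11 to 1.18 in RP22 libraries and 1.08 at day 1, so scaling to library totals alone lowers the median of all genes in AA147 against RP22 to -0.49, against -0.03 with TMM (log2). Changes are reported with TMM. One RP22 library, replicate 1, was unlike its group: a chi-square over gene counts, divided by its degrees of freedom, came to 28.0 with replicate 2 and 26.9 with replicate 3, while those 2 libraries gave 2.39. Replicate 1 was also the less alike one in the other groups, with 9.98 and 10.5 against 5.08 for AA147, and 13.8 and 8.47 against 3.66 at day 1. In RNA from whole cultures, fewer cells of a type and less RNA per cell cannot be told apart.

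At day 13 every replication gene measured was lower with AA147 than with RP22. All 38 passed the test (edgeR quasi-likelihood test, adjusted p under 0.05), against 32.2% of the 14293 genes tested that were called lower and 29.8% called higher. The median log2 fold change of the 38 was -1.08, against -0.03 for all genes tested, and it ran between -1.94 for ORC1 and -0.32 for RFC1. A fall of at least 2-fold was seen in 22 of the 38, against 18.1% of all genes tested. In all 38 the 3 AA147 libraries lay below the 3 RP22 libraries, as in 32.6% of genes tested. Without RP22 replicate 1 all 38 were still called lower, with a median of -1.14.

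The genes had also fallen in RP22 cells relative to day 1, where 36 of 38 were called lower, 1 higher (TYMS) and 1 was not called (POLD3). Of the 14558 genes tested in that comparison, 35.2% were called lower and 36.6% higher. A fall of at least 2-fold was seen in 20 of the 38, against 12.5% of genes tested, and 36 had RP22 libraries all below day 1 libraries, as in 38% of genes tested. The median of the 38 was -1.01, against 0.02 for all genes tested, and without RP22 replicate 1 it was -0.97 with the same counts. Against day 1, AA147 cells had all 38 called lower, among 40.4% of 13761 genes tested, with a median of -1.99 against -0.04 for all genes. Of these, 36 were at least 2-fold lower and 18 at least 4-fold lower, against 21.5% and 9.63% of all genes tested. In all 38 the AA147 libraries lay below the day 1 libraries, as in 42% of genes tested. The comparisons share libraries, so they are not independent of each other.

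**Figure D1:**
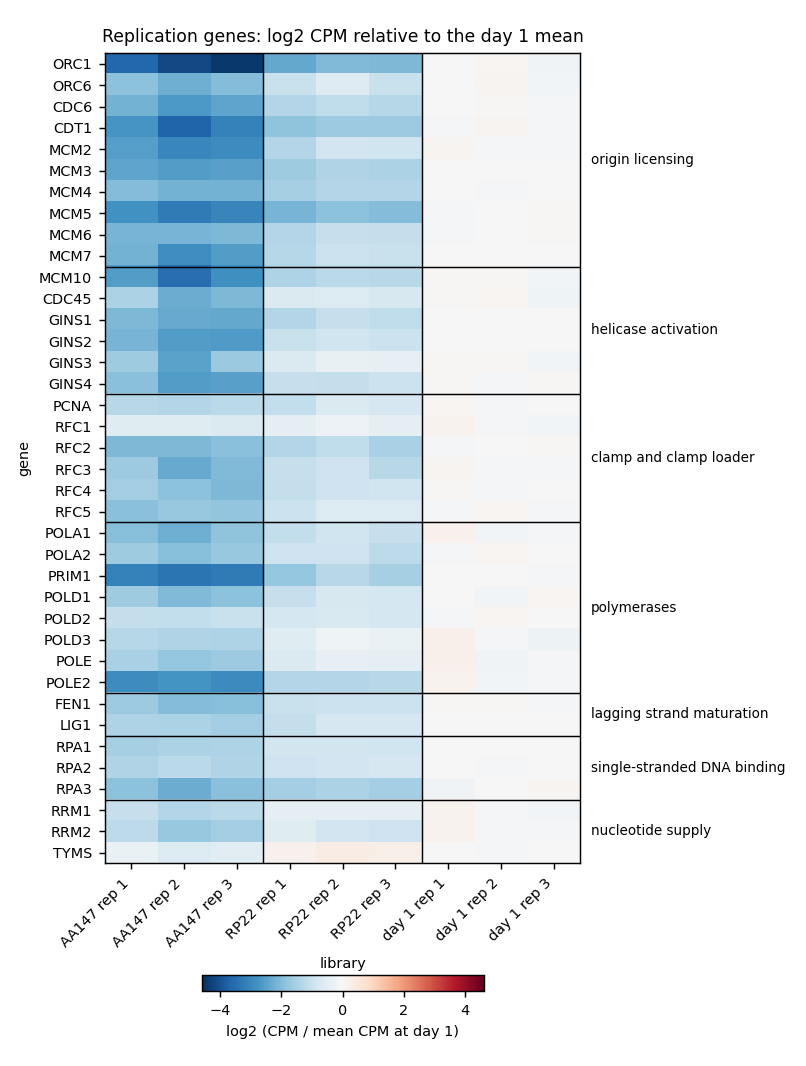
Level of each of the 38 replication genes (rows, grouped by role) in each of the 9 libraries (columns), as log2 of CPM over the mean CPM at day 1. Nearly every cell of the AA147 and RP22 columns is blue, below the day 1 mean, and AA147 columns are darker; TYMS in RP22 cells is the row that turns light red.

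Summed over the 38 genes, AA147 libraries held 1362 ± 110.4 CPM, RP22 libraries 2501 ± 175 CPM and day 1 libraries 5144 ± 144 CPM (SD, n = 3 each). As shares of all reads these were 0.109%, 0.289% and 0.557%. By medians, the level left at day 13 differed between roles, but the genes of different roles overlapped. With AA147 the polymerase genes ran from 10.6% (PRIM1) to 47.1% (POLD2) of day 1, and the licensing genes from 6.15% (ORC1) to 24.5% (ORC6). The median licensing gene was left at 17.7% of its day 1 level with AA147 and 39.4% with RP22, the median polymerase gene at 28.6% and 52.0%, and the median nucleotide supply gene at 43.3% and 73.2%. Helicase activation lay near licensing with AA147, at 20.7% with AA147 and 49.7% with RP22. The order of the roles is a description of a few genes each, with no test of the difference between roles.

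**Figure D2:**
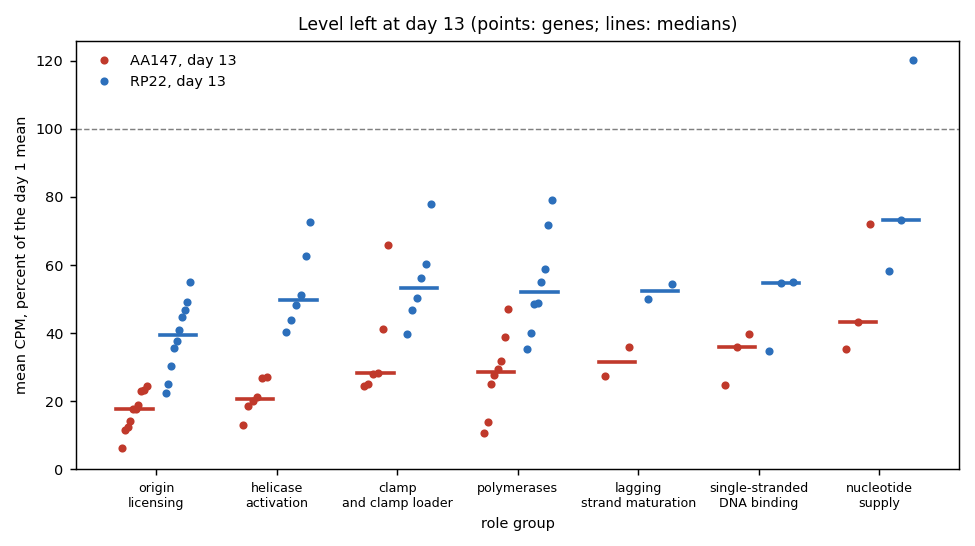
Mean CPM at day 13 as a percentage of the day 1 mean (vertical axis) for each replication gene, by role (horizontal axis), with AA147 in red left of RP22 in blue and short lines at the medians. The licensing medians are lowest, ORC1 is the lowest gene, at 6.15% with AA147, and TYMS is the highest, at 72% with AA147 and 120.1% with RP22.

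By their medians, origin licensing genes fell furthest from day 1. All 10 were lower in all 3 comparisons, with median log2 fold changes of -1.22 for AA147 against RP22, -1.35 for RP22 against day 1 and -2.5 for AA147 against day 1. ORC1, the largest subunit of the origin recognition complex, had 7.47, 5.10 and 4.16 CPM in AA147 cells, 17.6, 22.0 and 21.4 CPM in RP22 cells and 92.9, 97.2 and 81.9 CPM at day 1. The 3 groups did not overlap, and the gene was 3.85-fold lower in AA147 than in RP22 cells (log2 fold change -1.94 ± 0.23 SE, adjusted p = 0.000232) and 16.2-fold lower than at day 1. ORC6, the smallest subunit of that complex, fell less, to 24.5% of its day 1 mean with AA147 and 55.0% with RP22.

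CDC6 and CDT1 bring the MCM ring to the origin. CDC6 had 24.5, 17.8 and 20.4 CPM in AA147 cells, 43.2, 48.7 and 44.3 CPM in RP22 cells and 113.4, 114.1 and 104.9 CPM at day 1. CDT1 had 11.1, 5.65 and 8.44 CPM in AA147 cells, 20.3, 22.9 and 23.1 CPM in RP22 cells and 68.7, 79.0 and 70.2 CPM at day 1. Both were lower in AA147 than in RP22 cells, CDC6 by 2.29-fold and CDT1 by 2.76-fold. GMNN encodes geminin, the inhibitor that binds CDT1 after origins fire. GMNN was 2.01-fold lower in AA147 than in RP22 cells, and the log2 ratio of CDT1 to GMNN in RPKM was -2.41 ± 0.33 with AA147, -1.91 ± 0.12 with RP22 and -1.38 ± 0.03 at day 1 (SD, n = 3 each). That ratio is taken within a library and does not depend on library scaling; its 3 groups did not overlap.

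MCM2 to MCM7 are the 6 subunits of the ring. MCM3, the highest of them in mean CPM over all libraries, had 87.3, 79.2 and 84.5 CPM in AA147 cells, 152.6, 182.8 and 170.5 CPM in RP22 cells and 479, 473 and 463 CPM at day 1. It was 2.13-fold lower in AA147 than in RP22 cells and 5.64-fold lower than at day 1. MCM4 changed least between the compounds among licensing genes, with 107.8, 93.9 and 95.3 CPM in AA147 cells, 146.6, 168.1 and 168.7 CPM in RP22 cells and 432, 416 and 431 CPM at day 1 (log2 fold change of AA147 against RP22 -0.78 ± 0.09 SE). Even for MCM4 the groups did not overlap.

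MCM2 and MCM5 split the fall differently. Of the ring subunits, MCM2 fell most between the compounds, by 3.62-fold, and was 2.04-fold lower in RP22 cells than at day 1. MCM5 was 2.14-fold lower in AA147 than in RP22 cells and 4.01-fold lower in RP22 cells than at day 1. In RPKM the subunit with the most was MCM3 or MCM7 in every library, and the one with the least was MCM2, except in RP22 replicates 2 and 3, where it was MCM5. The ratio of the highest to the lowest subunit in RPKM was 3.02 to 3.47 in AA147 libraries, 2.01 to 2.34 in RP22 libraries and 2.36 to 2.69 at day 1. The log2 ratio of MCM2 to MCM6 in RPKM was -1.12 ± 0.26 in AA147 cells, -0.28 ± 0.12 in RP22 cells and -0.42 ± 0.18 at day 1 (SD, n = 3 each), so the AA147 libraries held less MCM2 for their MCM6. RP22 and day 1 overlapped in that ratio.

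MCM8 and MCM9 are relatives that form a separate helicase used in DNA repair. MCM8 was 2.33-fold lower in AA147 than in RP22 cells. MCM9 was 1.5-fold higher in AA147 than in RP22 cells (adjusted p = 0.0018), a call that ends with scaling to library totals alone (adjusted p = 0.272).

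**Figure D3:**
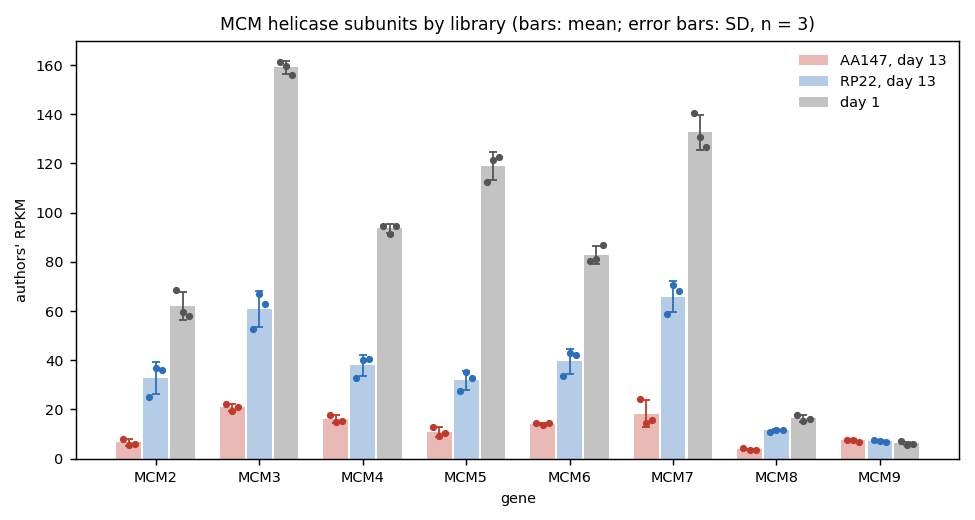
The authors' RPKM (vertical axis) of MCM2 to MCM7 and the relatives MCM8 and MCM9, with AA147, RP22 and day 1 from left to right; bars are means, error bars the SD of 3 libraries and points the libraries. The 6 ring subunits step up at each group, while MCM9 lies between 5.48 and 7.73 in all 9 libraries.

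The helicase activation genes had the largest median fall between the compounds, -1.42, and all 6 were at least 2-fold lower in AA147 than in RP22 cells. MCM10, which helps the helicase start, had 15.5, 8.14 and 13.0 CPM in AA147 cells, 34.7, 39.4 and 38.4 CPM in RP22 cells and 97.2, 97.1 and 84.0 CPM at day 1. GINS1, a subunit of the GINS complex, fell least of this role between the compounds, with 20.3, 16.8 and 16.6 CPM in AA147 cells, 33.4, 40.7 and 37.5 CPM in RP22 cells and 82.8, 84.8 and 86.9 CPM at day 1. The groups did not overlap for either gene, and the falls between compounds were 3.23-fold for MCM10 and 2.19-fold for GINS1. GINS3 and CDC45 moved mostly between the compounds. GINS3 was 2.83-fold lower in AA147 than in RP22 cells and 1.38-fold lower in RP22 cells than at day 1 (adjusted p = 0.0116), and CDC45 was 2.45-fold and 1.60-fold lower in these comparisons.

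PCNA, the sliding clamp, had the highest RPKM of the 38 genes in the mean of each group. It had 101.7, 98.8 and 105.8 CPM in AA147 cells, 114.5, 158.2 and 145.7 CPM in RP22 cells and 263, 235 and 248 CPM at day 1. The AA147 libraries lay close together below all RP22 libraries, of which replicate 1 was lowest, and the fall between compounds was 1.44-fold (adjusted p = 0.00553). The clamp loader is made of RFC1 to RFC5. RFC1, its large subunit, had the smallest change of all 38 genes between the compounds, with 96.5, 95.4 and 88.5 CPM in AA147 cells, 106.5, 118.5 and 106.9 CPM in RP22 cells and 160.1, 135.1 and 130.3 CPM at day 1. It was 1.25-fold lower in AA147 than in RP22 cells. Its fall of 1.28-fold in RP22 cells relative to day 1 had an adjusted p of 0.0106 with TMM and of 0.051 with library totals alone. RFC5 fell most between the compounds, with 16.3, 18.2 and 17.6 CPM in AA147 cells, 31.3, 39.6 and 40.0 CPM in RP22 cells and 59.8, 65.9 and 58.3 CPM at day 1, a change of 2.25-fold between the compounds. The small subunits RFC2 to RFC5 thus fell to between 24.6% and 28.3% of day 1 with AA147, while RFC1 was at 65.9%.

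The polymerase genes had a median fall of -1.09 between the compounds and -0.95 in RP22 cells relative to day 1. PRIM1, the catalytic subunit of primase, which lays the RNA primer, had 6.03, 5.10 and 5.54 CPM in AA147 cells, 15.2, 21.9 and 18.2 CPM in RP22 cells and 53.4, 53.3 and 50.2 CPM at day 1. It was 3.5-fold lower in AA147 than in RP22 cells and 9.39-fold lower than at day 1. The primer is extended by polymerase alpha, whose catalytic subunit POLA1 and partner POLA2 were 2.04-fold and 1.76-fold lower in AA147 than in RP22 cells.

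POLE, the catalytic subunit of the leading strand polymerase epsilon, had 57.2, 47.0 and 51.0 CPM in AA147 cells, 102.0, 124.0 and 123.1 CPM in RP22 cells and 191.3, 144.7 and 151.0 CPM at day 1. Its fall was mostly between the compounds, 2.38-fold, with 1.40-fold in RP22 cells relative to day 1. Its partner subunit POLE2 went lower in both steps, by 3.06-fold between the compounds and 2.5-fold between RP22 cells and day 1. The subunits of polymerase delta, which copies the lagging strand, also differed. POLD2, a regulatory subunit, had 40.4, 40.0 and 42.3 CPM in AA147 cells, 50.2, 53.8 and 49.3 CPM in RP22 cells and 82.5, 93.1 and 85.1 CPM at day 1, and fell 1.32-fold between the compounds. POLD3, an accessory subunit, had 25.2, 24.1 and 23.6 CPM in AA147 cells, 43.1, 55.2 and 50.3 CPM in RP22 cells and 74.0, 61.0 and 53.0 CPM at day 1. It was 2.15-fold lower in AA147 than in RP22 cells. RP22 and day 1 libraries overlapped for POLD3, and their difference did not pass the test (log2 fold change -0.34 ± 0.14 SE, adjusted p = 0.0576); it passed without RP22 replicate 2 (adjusted p = 0.0468) or without day 1 replicate 3 (adjusted p = 0.0269). POLD1, the catalytic subunit, was 2.09-fold lower in AA147 than in RP22 cells.

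**Figure D4:**
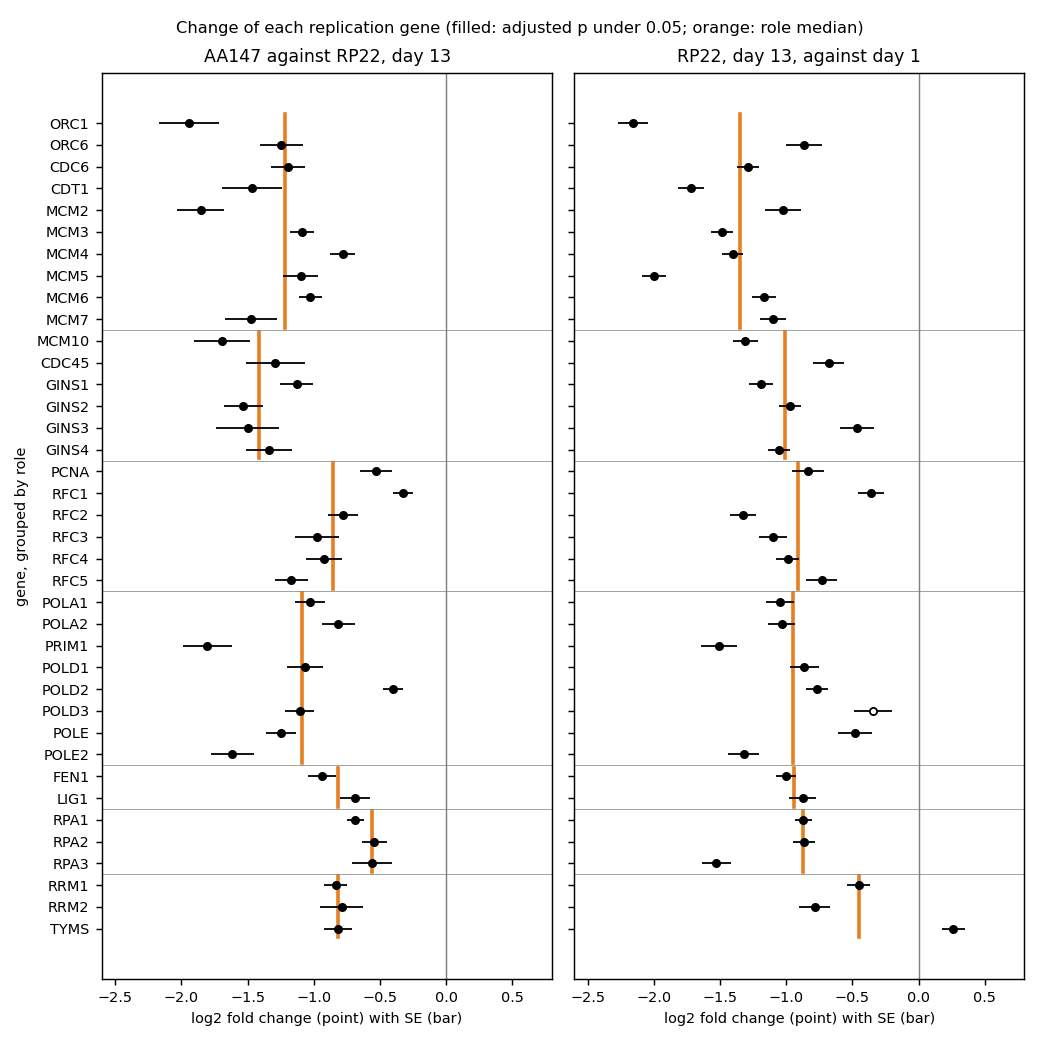
Log2 fold change (horizontal axis, point) with its SE (bar) of each replication gene for AA147 against RP22 (left panel) and RP22 against day 1 (right panel), grouped by role with orange lines at role medians. All points of the left panel are filled, adjusted p under 0.05, and lie left of 0; in the right panel POLD3 is open and TYMS lies right of 0.

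The lagging strand and single-stranded DNA binding genes had medians of -0.81 and -0.56 between the compounds. FEN1, the nuclease that trims flaps between fragments, had 34.6, 27.6 and 28.0 CPM in AA147 cells, 53.5, 55.3 and 55.0 CPM in RP22 cells and 112.1, 112.0 and 103.5 CPM at day 1. LIG1, the ligase that seals them, had 45.4, 44.4 and 40.4 CPM in AA147 cells, 56.1, 71.4 and 70.9 CPM in RP22 cells and 122.2, 121.3 and 120.0 CPM at day 1. The groups did not overlap for either gene, with falls between the compounds of 1.92-fold for FEN1 and 1.61-fold for LIG1.

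RPA1, RPA2 and RPA3 form the trimer that coats unwound strands. RPA1 had 88.0, 92.5 and 95.1 CPM in AA147 cells, 140.7, 143.3 and 135.4 CPM in RP22 cells and 258, 255 and 252 CPM at day 1, a fall of 1.61-fold between the compounds. RPA2 had 24.5, 27.3 and 24.8 CPM in AA147 cells, 33.2, 34.5 and 37.8 CPM in RP22 cells and 65.5, 61.7 and 65.0 CPM at day 1, a fall of 1.46-fold between the compounds. RPA3 fell 1.47-fold between the compounds and 2.88-fold between RP22 cells and day 1. RPA1 and RPA2 fell 1.83-fold and 1.82-fold between RP22 cells and day 1, so for all 3 genes the value of this fall was above that between the compounds. The call of RPA3 between the compounds ends without RP22 replicate 2 (adjusted p = 0.05).

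By their medians, nucleotide supply genes were the role least reduced from day 1. RRM1, the large subunit of ribonucleotide reductase, had 92.2, 75.6 and 81.9 CPM in AA147 cells, 141.0, 142.0 and 139.1 CPM in RP22 cells and 215, 183 and 178 CPM at day 1. RRM2, its S phase small subunit, had 79.1, 54.5 and 60.5 CPM in AA147 cells, 122.9, 100.1 and 95.2 CPM in RP22 cells and 204, 169 and 174 CPM at day 1. The groups did not overlap for either gene, with falls between the compounds of 1.79-fold for RRM1 and 1.73-fold for RRM2. RRM2 was also the 1 gene of the 38 for which RP22 replicate 1, lowest of its group for 28 genes, was the highest.

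RRM2B encodes the alternative small subunit, which cells outside S phase use and which is known as a p53 target. It had 177.3, 226.1 and 190.4 CPM in AA147 cells, 65.3, 76.8 and 68.0 CPM in RP22 cells and 67.9, 81.2 and 73.2 CPM at day 1. RRM2B was 2.67-fold higher in AA147 than in RP22 cells (adjusted p = 2.73e-05), and RP22 and day 1 overlapped. In RPKM the order of the small subunits was opposite in the groups. RRM2 averaged 15.2 ± 3.24 and RRM2B 32.1 ± 3.55 RPKM in AA147 cells. In RP22 cells RRM2 averaged 35.8 ± 3.35 and RRM2B 16.6 ± 1.88 RPKM, and at day 1 they averaged 57.9 ± 5.63 and 16.4 ± 1.57 RPKM (SD, n = 3 each). The log2 ratio of RRM2 to RRM2B, taken within a library, was negative in all 3 AA147 libraries (-1.10 ± 0.43) and positive in all RP22 (1.11 ± 0.28) and day 1 (1.82 ± 0.27) libraries.

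TYMS, thymidylate synthase, was the exception among the 38. It had 26.2, 21.2 and 23.1 CPM in AA147 cells, 37.2, 41.2 and 39.2 CPM in RP22 cells and 33.0, 31.5 and 33.4 CPM at day 1. All AA147 libraries were below day 1 and all RP22 libraries above it. TYMS was 1.76-fold lower in AA147 than in RP22 cells (adjusted p = 0.000394) and 1.39-fold lower than at day 1 (adjusted p = 0.00325). It was 1.20-fold higher in RP22 cells than at day 1 (log2 fold change 0.26 ± 0.09 SE, adjusted p = 0.0248). That call ends without RP22 replicate 2 (adjusted p = 0.0955) or 3 (adjusted p = 0.0651), or without day 1 replicate 2 (adjusted p = 0.0636) or 3 (adjusted p = 0.061). Measured against MCM5 in RPKM within a library, the log2 ratio was 0.22 ± 0.08 in AA147 cells, -0.06 ± 0.06 in RP22 cells and -2.32 ± 0.10 at day 1 (SD, n = 3 each). TYMS shares 58.2% of its exon bases with ENOSF1 on the opposite strand (GENCODE 29), which had 556, 414 and 434 reads in AA147 cells, 1040, 1119 and 1220 reads in RP22 cells and 911, 871 and 911 reads at day 1. Whether counting used strand is not given in the sources used here, so the part of ENOSF1 in the TYMS values was not tested.

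**Figure D5:**
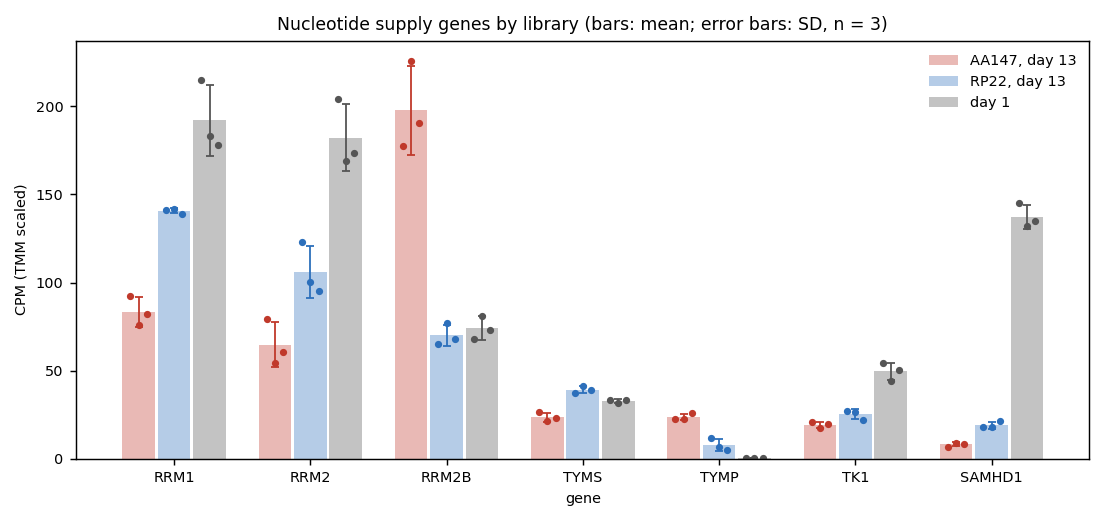
CPM (vertical axis) of nucleotide supply genes, with AA147, RP22 and day 1 from left to right; bars are means, error bars the SD of 3 libraries and points the libraries. RRM1 and RRM2 step up at each group, RRM2B is highest with AA147 (177.3 to 226.1 CPM), and TYMS is highest with RP22.

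Other nucleotide synthesis genes moved in both directions between the compounds. Of 20, 11 were lower and 3 higher in AA147 than in RP22 cells and 6 were not called, with a median of -0.25, among 32.2% of all genes tested called lower and 29.8% called higher. With library totals alone 16 were lower and 3 higher, with a median of -0.71. That scaling called 8527 of all 14293 genes tested lower and 1897 higher, with a median of -0.49. The call of DUT, 1 of the 11, ends in 11 of 13 alternatives. TK1, the thymidine salvage kinase, was 1.37-fold lower (adjusted p = 0.0131), a call that ends without AA147 replicate 2 or without RP22 replicate 2. CTPS1, which makes CTP, was 1.99-fold higher. SAMHD1, which degrades deoxynucleotides, had 6.82, 9.10 and 8.06 CPM in AA147 cells, 18.1, 17.7 and 21.3 CPM in RP22 cells and 145, 132 and 135 CPM at day 1. It was 2.52-fold lower in AA147 than in RP22 cells and 17.2-fold lower than at day 1. In RP22 cells relative to day 1, 18 of the 20 were lower, with a median of -1.01 (35.2% of all genes tested were called lower), and 1 higher, TYMP, which breaks down thymidine; 1 was not called.

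Of 32 other replication factors, 24 were lower and 1 higher in AA147 than in RP22 cells, with a median of -1.04, against 32.2% of all genes tested called lower and 29.8% higher. With library totals alone 30 were lower and 1 higher, with a median of -1.50. Among all 14293 genes tested, 8527 were then lower and 1897 higher, with a median of -0.49. ATAD5, which unloads PCNA, was 4.07-fold lower. CDC7, the kinase that fires origins, was 3.20-fold lower, and TOP2A, which untangles daughter strands, 3.46-fold lower. TOP2A did not pass the test between RP22 cells and day 1 (log2 fold change -0.05 ± 0.09 SE, adjusted p = 0.663). The 1 higher gene was POLD4, the small subunit of polymerase delta, with 33.3, 33.0 and 35.2 CPM in AA147 cells, 15.9, 10.9 and 10.7 CPM in RP22 cells and 6.23, 8.07 and 7.86 CPM at day 1. POLD4 rose in each comparison, opposite to POLD1 and POLD2.

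Genes around the G1/S transition and mitosis were counted beside the replication genes. Of 23 genes of E2F and G1/S control, 13 were lower and 4 higher in AA147 than in RP22 cells, with a median of -0.71, against 32.2% of all genes tested called lower and 29.8% higher. With library totals alone 20 were lower and 3 higher, with a median of -1.16. Among all 14293 genes tested, 8527 were then lower and 1897 higher, with a median of -0.49. E2F1, a transcription factor of this family, was 2.09-fold lower in AA147 than in RP22 cells and did not pass the test between RP22 cells and day 1 (log2 fold change -0.28 ± 0.12 SE, adjusted p = 0.0689). CDKN1A encodes the kinase inhibitor p21, which also binds PCNA. It had 536, 771 and 636 CPM in AA147 cells, 101.2, 109.3 and 95.1 CPM in RP22 cells and 11.4, 19.9 and 18.1 CPM at day 1, and was 6.01-fold higher in AA147 than in RP22 cells. CDKN2B, which encodes the kinase inhibitor p15, was 9.0-fold higher in AA147 than in RP22 cells. CDKN2A, a further inhibitor gene of the list, was higher too (log2 fold change 2.16, edgeR, adjusted p = 0.000615). The kinase inhibitors did not all move this way: CDKN1C, which encodes p57, was 8.23-fold lower in AA147 than in RP22 cells (adjusted p = 0.00393), the largest fall of the list, and CDKN1B, which encodes p27, was 1.46-fold lower (adjusted p = 0.0013).

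All 18 mitosis genes were lower in AA147 than in RP22 cells, with a median of -1.42, against 32.2% of all genes tested called lower. In RP22 cells 17 were lower than at day 1, against 35.2% of all genes tested; the call of CDK1, 1 of the 17, ends in 9 of 13 alternatives (adjusted p = 0.0377 as tested). The exception was MKI67, a marker of cycling cells, which was 2.67-fold lower in AA147 than in RP22 cells and 1.28-fold higher in RP22 cells than at day 1 (adjusted p = 0.0201). The higher call ends without RP22 replicate 3, day 1 replicate 2 or day 1 replicate 3. The promoters of the 2 sets differed in the words they hold. The words TTTGAA and TTCGAA, forms of the cell cycle homology region, were found on either strand in 2 of 32 replication genes (6.25%), in 11 of 15 mitosis genes with a window (73.3%) and in 19.5% of all genes with a window. The E2F words were found in 2 of the 15 mitosis genes.

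Markers of cell types moved with the groups. Pluripotency genes (8 genes) summed to 634 to 987 CPM in AA147 libraries, 1113 to 1769 CPM in RP22 libraries and 8657 to 9494 CPM at day 1, with NANOG at 0 in all AA147 libraries. The day 1 libraries thus carried the markers their label names. Mesenchyme genes (6) summed to 60455 to 69040 CPM with AA147, 10874 to 25537 CPM with RP22 and 472 to 582 CPM at day 1, and smooth muscle genes (6) to 5952 to 6710, 1009 to 1221 and 351 to 387 CPM in the same groups. Neuron genes (6) summed to 460 to 519 CPM with AA147, 864 to 1145 CPM with RP22 and 199.9 to 269 CPM at day 1, with NEUROD1 at 0 in AA147 and day 1 libraries. Most of the AA147 sum was TUBB3, at 416 to 462 CPM, while DCX was at 0.378 to 1.66 CPM with AA147, 203 to 218 CPM with RP22 and 6.32 to 9.05 CPM at day 1. Neural progenitor genes (8) summed to 698 to 917 CPM with AA147, 757 to 1076 CPM with RP22 and 1047 to 1081 CPM at day 1, with HES5 and FABP7 at 0 in AA147 libraries, where NES alone gave 695 to 912 CPM. Endothelial genes (5) summed to 5.52 to 22.3 CPM with AA147, 85.9 to 180.1 CPM with RP22 and 37.9 to 58.1 CPM at day 1, with PECAM1 at 0 in AA147 and day 1 libraries. Hepatic endoderm genes (6) summed to 0.965 to 6.16 CPM with AA147, 110.3 to 180.0 CPM with RP22 and 5.30 to 8.95 CPM at day 1, with TTR at 0 in AA147 and day 1 libraries and FGB at 0 at day 1. Of the marker genes tested between the compounds, 6 of 7 pluripotency, 6 of 7 neural progenitor, 5 of 6 neuron, 4 of 4 endothelial and 5 of 5 hepatic endoderm genes were lower with AA147, against 32.2% of all genes tested. The remaining neuron gene, TUBB3, was higher, as were 5 of 6 smooth muscle and 4 of 6 mesenchyme genes, against 29.8% of all genes tested. The part of these cell types in the levels of the replication genes was not tested.

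Replicates of a group differed together in the replication genes. AA147 replicate 1 was the highest of its group for 29 of the 38 genes, and RP22 replicate 1 the lowest of its group for 28. Replicate 1 was also the less alike library of these groups over all genes. The same order was not counted over all genes, so it is not shown to be particular to replication genes. Without replicate 1 of both groups all 38 were called lower in AA147 than in RP22 cells, with a median of -1.21. With library totals alone the AA147 falls were larger, with medians between the compounds of -1.68 for licensing, -1.54 for polymerases and -1.27 for nucleotide supply genes, and all 38 still had the same direction.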

How the data were processed

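RNA-seq libraries of HUES9 cells were grouped by the labels (AA147, RP22 and day 1, 3 libraries each). The authors deposited estimated counts per gene and RPKM, which they scaled to gene length and library total. The submitters' processing notes name the build GRCh37.p13; no aligner or counting tool is given in the sources at hand. Of the cells of the deposited count table, 41.4% held a floor of 0.05, read as 0, and 0.914% held fractions, which were rounded; 42 symbols on 2 rows were summed. Replication genes had neither repeated rows nor fractions.

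Tests on the counts used edgeR 4.0.16 under R 4.3.3 (filterByExpr, TMM, robust quasi-likelihood F test, Benjamini-Hochberg over all genes tested, threshold 0.05). Each comparison was fitted on its own 6 libraries. Printed SEs are the log2 fold change, without sign, over the square root of F. Depth was 9223027 to 10118258 reads per library, and the biological coefficient of variation was 15.4%, 15.6% and 12.3% (AA147 against RP22, RP22 against day 1, AA147 against day 1). RPKM was used for levels between genes and for ratios within a library. Alternatives were library totals alone, DESeq2 1.42.0, its size factors alone, a replicate block, a joint fit of all 9 libraries, no filter on counts and left-out libraries. Every script with a test was tested on simulated data. In the same order of comparisons, 6.62%, 5.67% and 10.5% of the simulated calls were false. Planted changes of 1.5-fold were recovered in 34%, 30% and 58% of genes, and those of 2-fold in 66%, 50% and 72%. Planted 4-fold changes were recovered in 82%, 92% and 98%. The simulation changed far fewer genes than were called in the data, as many higher as lower. No shift in scaling between groups was planted. These rates thus describe the simulated setting and are not error rates of the comparisons reported here. Sequences are RefSeq promoter windows. By GENCODE 29, 11 of the 38 genes share at least 5% of their exon bases with another gene, among them FEN1, MCM7, PRIM1 and TYMS with genes of the count table, so reads between these may be split or shared.

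Members, lists and tests were chosen with earlier results of these data known. All replication genes could be named; values in every library are given for the genes with the highest mean CPM and the most negative and most positive change between the compounds in each role, for those that went against their role or did not pass, and for a few others chosen after their values were seen. Of each further list, genes with the lowest p and some at its extremes were named. RRM2B, MCM8, MCM9, TK1, GMNN, E2F1, MKI67 and CDKN1A were also named, as were a few others chosen after their values were seen. Not every gene the rule names is reported here.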

Additional observations from a re-analysis of the deposited data

Results flagged for a closer look

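TYMS had a log2 fold change of AA147 against RP22 of -0.82 ± 0.11 SE. It drew attention because its levels in AA147 and RP22 cells lay on opposite sides of day 1. They were 23.5 ± 2.52 CPM with AA147 and 39.2 ± 2.03 CPM with RP22, against 32.6 ± 1.00 CPM at day 1 (SD, n = 3 each). The higher call in RP22 cells than at day 1 ends with a replicate block (edgeR, adjusted p = 0.0564). It also ends when some single libraries are left out. The difference between the compounds was tested directly and kept its call and direction under every alternative run. The part of reads from the overlapping gene ENOSF1 was not tested.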

How the results depend on the processing

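No replication gene changed direction under the alternatives run, and all 38 stayed lower with AA147 than with RP22 except RPA3, whose call ends without RP22 replicate 2. Library totals alone moved most. With them 8527 genes were lower and 1897 higher in AA147 than in RP22 cells, against 4600 and 4265 with TMM, so 18.2% of calls were higher, against 48.1%; the split was 34.3% against 48.9% for AA147 against day 1. Role medians with library totals, in the order licensing, helicase activation, clamp and loader, polymerases, lagging strand, single-stranded DNA binding and nucleotide supply, were -1.68, -1.87, -1.31, -1.54, -1.27, -1.01 and -1.27 for AA147 against RP22, and -2.93, -2.71, -2.27, -2.24, -2.11, -1.91 and -1.64 for AA147 against day 1. For RP22 against day 1 helicase activation moved to -0.91 and the clamp and loader to -0.81; without replicate 1 of both groups the clamp and loader came to -0.80. Summed CPM became 1088 with AA147, 2894 with RP22 and 5565 at day 1. The count of replication genes higher in RP22 cells than at day 1 was 0 to 1 with a library left out. POLD3 became called there with no count filter (adjusted p = 0.0489) and with all 9 libraries in one fit (adjusted p = 0.0317). For AA147 with RP22, deviations from the group mean correlated at 0.22, 0.17 and 0.085 between same-numbered libraries. Between libraries of unlike number these correlations ran from -0.23 to 0.15. With day 1, same-numbered libraries correlated between -0.05 and 0.07. The labels name no block, so numbers were not taken as pairs. Whether same-numbered day 13 libraries share an experiment was not tested. With a replicate block the count of genes higher in RP22 cells than at day 1 was 0 (TYMS, adjusted p = 0.0564), and no other call of the 38 changed. Where not stated, the cause was not tested. Sequencing depth limits the lowest genes most, such as GINS3 at 27 reads.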

Other observations

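Genes that copy mitochondrial DNA or bypass DNA lesions were counted beside the nuclear replication genes. Of 8 genes that replicate mitochondrial DNA, 3 were lower and 1 higher in AA147 than in RP22 cells and 4 were not called, and the median was -0.33 (log2). The 3 lower genes are a share near that of all genes tested called lower, 32.2%. Of these, the call of TWNK (edgeR, adjusted p = 0.0258) ends in 5 of 13 alternatives. That of MGME1 (edgeR, adjusted p = 0.0173) ends in 4 of 13. With library totals alone 7 were lower and none higher, with a median of -0.79. That scaling called 8527 of all 14293 genes tested lower, with a median of -0.49. TFAM, which packages mitochondrial DNA, had 65.0, 64.5 and 61.1 CPM in AA147 cells, 73.2, 88.8 and 83.0 CPM in RP22 cells and 152.9, 149.5 and 145.2 CPM at day 1, a fall of 1.36-fold between the compounds (edgeR, adjusted p = 0.00316). In RP22 cells 7 of the 8 were lower than at day 1, with a median of -1.09, against 35.2% of all genes tested called lower. POLG, the mitochondrial polymerase, was 1.32-fold higher in AA147 than in RP22 cells with TMM (adjusted p = 0.0077), and its direction turned with library totals alone (log2 fold change -0.06, adjusted p = 0.635).

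Of 8 translesion polymerases and MCM relatives, 4 were lower and 2 higher in AA147 than in RP22 cells, against 32.2% and 29.8% of all genes tested, and 5 were higher in RP22 cells than at day 1, against 36.6%. With library totals alone 6 were lower and 1 higher in AA147 than in RP22 cells, with a median of -0.60 in place of -0.15. The median of all genes tested was then -0.49, with 8527 of 14293 called lower and 1897 higher. POLH, the polymerase that bypasses ultraviolet lesions, had 53.9, 60.5 and 50.8 CPM in AA147 cells, 27.6, 26 and 28.0 CPM in RP22 cells and 16.0, 17.4 and 18.4 CPM at day 1. It was 1.91-fold higher in AA147 than in RP22 cells and 3.19-fold higher than at day 1, with no overlap between groups.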
